A study of Homo sapiens with 12 samples.

Results

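The endoplasmic reticulum (ER) chaperones and the genes of the unfolded protein response were followed in IMR90, a fibroblast line established from human lung. The set held 35 genes chosen by symbol: chaperones, folding enzymes, degradation factors, stress sensors and genes of protein entry and exit. All 35 were among the 16383 genes listed, and 34 reached a mean of at least 10 normalized counts over the 12 libraries, out of 11242 genes that did. The remaining member, DERL3, a channel protein of ER-associated degradation, was listed at 0 in all 12 libraries, and a count of 0 reads allows up to 3 reads in each. Poly(A) RNA was sequenced from 4 groups of 3 libraries, all of wild-type genotype. Proliferating cells had no treatment (libraries A125, A126 and A127). The other groups had received 20 Gy of ionizing radiation over 10 min to make them senescent. They were given DMSO (A116, A117 and A118), 2 µM palbociclib (A119, A120 and A121) or 2 µM ruxolitinib (A122, A123 and A124). The inhibitors were given on days 4, 6, 8 and 10 after irradiation, and irradiated cells were harvested on day 11. Palbociclib inhibits the cyclin-dependent kinases CDK4 and CDK6, and ruxolitinib inhibits the Janus kinases JAK1 and JAK2. The labels give no harvest day for the proliferating cells, so radiation, DMSO and time in culture cannot be told apart in that comparison. All samples come from 1 cell line, and nothing in the labels says that replicates were separate cultures, so p-values measure only the spread between these samples.

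The unfolded protein response adjusts the folding capacity of the ER to the load of secreted and membrane proteins. Its sensors sit in the ER membrane: IRE1 (encoded by ERN1) splices the XBP1 transcript, PERK (EIF2AK3) phosphorylates the initiation factor eIF2 alpha, and ATF6 is cut in the Golgi to release a transcription factor. Cleaved ATF6 and spliced XBP1 act on chaperone, folding and degradation genes, many of which carry ER stress elements in their promoters. Fibroblasts secrete large amounts of collagen and fibronectin, which fold in this compartment. Gene-level counts as used here do not separate spliced from unspliced XBP1 and do not report phosphorylation or cleavage.

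The letters of the ER stress element were searched in the promoters of the members, since ATF6 and XBP1 are known to act through it. RefSeq promoter windows of GRCh38.p14, from 250 bases before to 50 bases after an annotated transcript start, were available for 31 of the 35 members, with 37 windows in all. In 26 members a window lay at the start of the gene. In the other 5 the transcript start was inside the gene, by 19771 to 20311 bases in CANX and by 5227 and 24927 bases in PDIA6. The element, CCAAT and CCACG with 9 bases between them on either strand, was present in a window of 25 of 27305 genes (0.0916%), 9 of them members (29.0% of 31). These were HSPA5, HSP90B1, CALR, CANX, PDIA6, ERO1B, CRELD2, XBP1 and SERP1. Its second form, ATTGG and CCACG with 1 base between them, was present in 19 genes (0.0696%), among them 3 members (9.68%), HYOU1, SDF2L1 and HERPUD1. TGACGTGG was present in 253 genes (0.927%), among the members only in HYOU1 (3.23%), where it overlaps a match of the second form. Element and members were both picked from what is known of this response, so higher shares among the members are not a finding of these data. Stretches around the matches follow, 5′ to 3′ on the strand of the gene, for the 6 members with the element and the 2 with its second form that were lower after irradiation, and for HERPUD1, which was higher. Capitals mark the matched letters, which in HYOU1, SDF2L1, CALR, CRELD2 and the second match of HSP90B1 read as the reverse complement of the element.
HSPA5, chr9:125241371-125241429, minus strand: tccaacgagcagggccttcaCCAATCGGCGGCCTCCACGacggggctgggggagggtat
HSP90B1, chr12:103930196-103930359, plus strand: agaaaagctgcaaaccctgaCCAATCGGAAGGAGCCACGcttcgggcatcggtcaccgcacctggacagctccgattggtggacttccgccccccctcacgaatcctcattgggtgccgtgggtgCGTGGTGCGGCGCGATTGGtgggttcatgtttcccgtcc
CALR, chr19:12938364-12938422, plus strand: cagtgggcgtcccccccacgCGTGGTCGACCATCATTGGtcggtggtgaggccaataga
XBP1, chr22:28800583-28800641, minus strand: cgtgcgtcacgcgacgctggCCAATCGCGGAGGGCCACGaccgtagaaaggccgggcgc
PDIA6, chr2:10812833-10812891, minus strand: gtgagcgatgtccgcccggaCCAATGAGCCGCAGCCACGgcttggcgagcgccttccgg
CRELD2, chr22:49918534-49918592, plus strand: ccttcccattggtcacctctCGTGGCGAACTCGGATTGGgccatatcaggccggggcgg
HYOU1, chr11:119057254-119057410, minus strand: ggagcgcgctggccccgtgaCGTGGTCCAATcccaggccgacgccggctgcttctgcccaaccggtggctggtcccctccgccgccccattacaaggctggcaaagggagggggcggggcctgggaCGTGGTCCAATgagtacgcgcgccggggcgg
SDF2L1, chr22:21642094-21642144, plus strand: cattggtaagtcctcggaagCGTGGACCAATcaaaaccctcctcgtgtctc
HERPUD1, chr16:56932005-56932055, plus strand: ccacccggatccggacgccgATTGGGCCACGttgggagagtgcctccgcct
A match shows only that these letters are present, and nothing was measured on binding.

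Over the listed genes, 14106799 to 21762412 reads per library were recovered from the normalized counts. All 10 fibroblast markers had a mean of at least 10 in every group. Their summed level moved with the groups, at 1051823 to 1094861 normalized counts in proliferating cells and, after irradiation, 600274 to 607211 in the DMSO group, 869355 to 924446 in the palbociclib group and 716303 to 723759 in the ruxolitinib group. COL1A1, COL1A2, FN1 and VIM gave most of the sum. DCN and THY1 had higher means with DMSO than in proliferating cells (13247 against 11887 and 9900 against 8752), and the other markers lower ones. PDGFRA was lower with palbociclib than with DMSO (3368 against 4123), and the other markers higher. The part of this summed level in the results below was not tested. The 5 blood markers summed to 2.22 to 40.6. Among the 5 endothelial markers, CDH5 had a mean of at most 1.16 in any group, and TEK gave most of a sum of 1681 to 4381. The 6 epithelial markers summed to 99.99 to 503.5, mostly KRT19, and the 2 smooth muscle markers to 26.6 to 106.9. Since RNA of whole cultures was measured, fewer cells of a kind and less RNA per cell cannot be told apart. Libraries A126, A119 and A120 stood apart from the others of their groups along transcript length: across 34 member genes, the Spearman correlation between length and the deviation from the other 2 libraries was -0.77, 0.76 and -0.88, a description across genes that share a library. Scaling all libraries to the same total of listed reads moved the median of all tested genes from -0.05 to 0.18 on the log2 scale between DMSO and proliferating cells, and from 0.02 to -0.21 between palbociclib and DMSO. All changes below are therefore relative to the deposited scaling, and many of the calls depend on it.

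The members covered a wide range of levels. Per kilobase of transcript, the level in DMSO-treated senescent cells was highest for CALR, a lectin chaperone, at 12600 ± 530.3 normalized counts (SD, n = 3). P4HB, a protein disulfide isomerase that is also a subunit of collagen prolyl hydroxylase, followed at 8312 ± 302.4, then HSP90B1, the ER member of the Hsp90 family, at 6719 ± 341.6 and HSPA5 (BiP), the ER Hsp70, at 5247 ± 239.6. At the other end stood EIF2AK3 at 130.4 ± 10.2, ERN1 at 30.3 ± 3.3 and ERO1B, an oxidase of disulfide formation, at 21.2 ± 1.7. The 4 most abundant members thus differed from each other by more than 1 SD, and the sensors IRE1 and PERK were among the 3 least abundant of the 34. Together the members took 1.12 ± 0.0263% of all listed reads (SD, n = 3) in proliferating cells. In irradiated cells the share was 1.02 ± 0.0279% after DMSO, 0.967 ± 0.00916% after palbociclib and 1.05 ± 0.0135% after ruxolitinib.

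**Figure D1:**
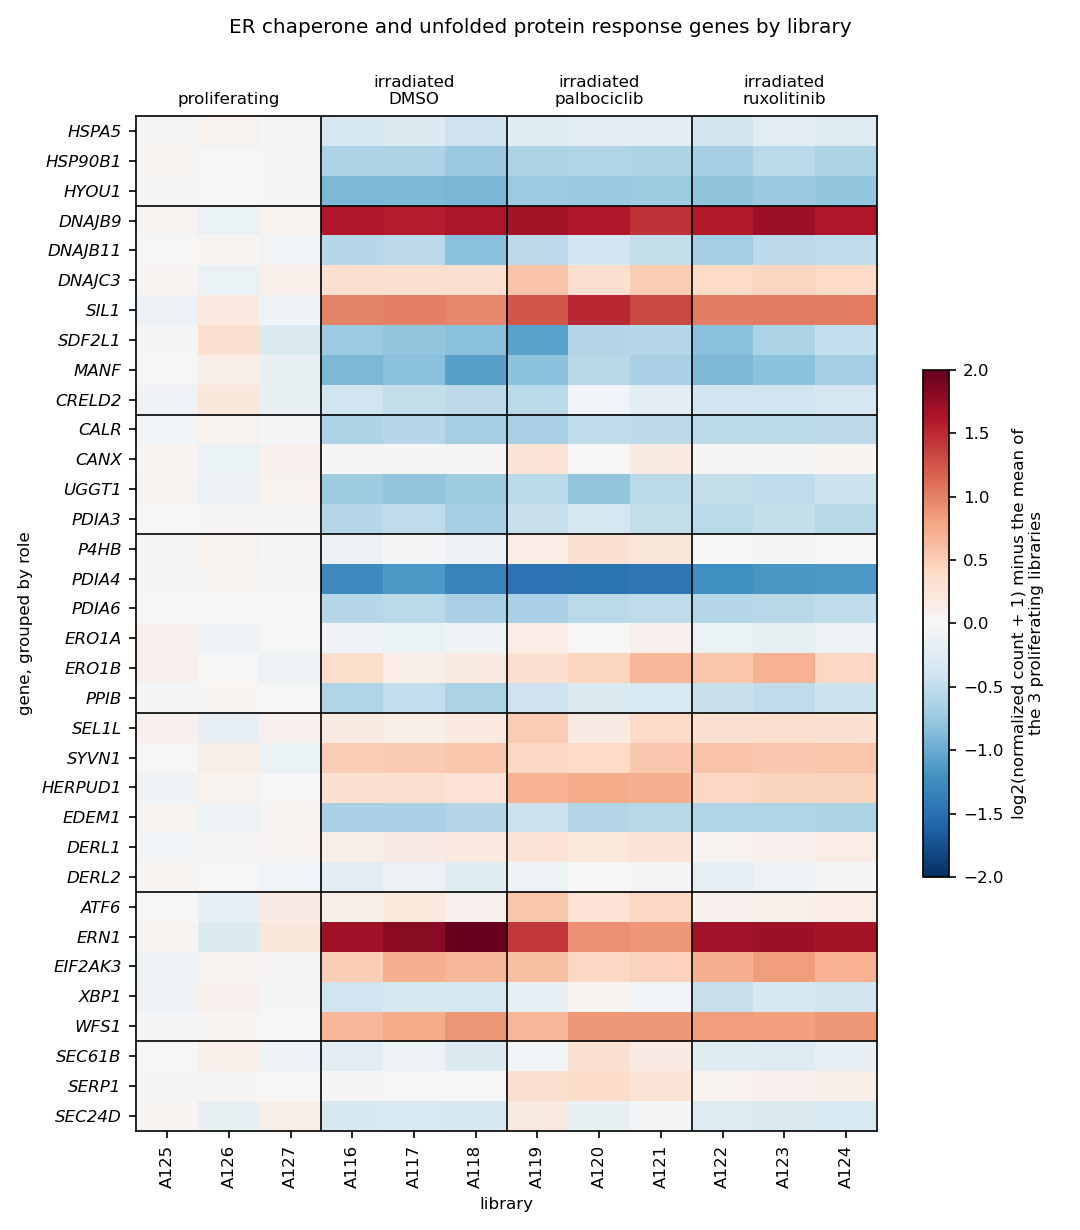
Colour gives log2(normalized count + 1) of each of 34 genes (vertical axis, by role) in each of 12 libraries (horizontal axis) minus the mean of the 3 proliferating libraries, on a scale that ends at -2 and 2. ERN1, DNAJB9 and SIL1 are red and PDIA4 is blue in all 9 irradiated libraries, and ERN1 is paler in the palbociclib libraries.

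Senescent cells given DMSO were compared with proliferating cells to ask how these genes differ after irradiation. As deposited, the chaperones HSPA5, HSP90B1, HYOU1 and CALR and 3 of 6 genes of oxidative folding were lower, and CANX and P4HB were not called. The sensors ERN1 and EIF2AK3 and 3 of 6 tested genes of ER-associated degradation were higher. Of the 34 members, 18 were lower and 9 higher at an adjusted p under 0.05 (limma on log2 values, Benjamini-Hochberg over 11242 genes). Of all tested genes, 39.3% were lower and 33.0% higher. The median log2 fold change was -0.20 for the members and -0.05 for all tested genes. The balance of directions moved with the scaling of the libraries. Higher genes made up 33.3% of the members' calls as deposited, 48.3% at the same upper quartile (14 higher, 15 lower), 46.4% after quantile normalization (13 higher, 15 lower) and 57.1% at the same total (16 higher, 12 lower). Over all tested genes these shares of the calls were 45.7%, 58.5%, 51.9% and 64.0%. Under all 3 of these scalings, 12 of the 18 lower calls and all 9 higher calls were kept. The lower calls of HSPA5, XBP1, DERL2, CRELD2, SEC61B and SEC24D were lost under at least 1 scaling. At the same total, ATF6, CANX, SEL1L, SERP1, ERO1A, ERO1B and P4HB were also called higher. The groups did not overlap for 18 members that were lower and 11 that were higher, against 40.8% and 34.3% of all tested genes. At least 2-fold changes were found for ERN1, DNAJB9 and PDIA4, beside 20.0% of all tested genes.

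All 3 chaperones of the Hsp70 and Hsp90 families fell. HSPA5 read 25489, 27495 and 25273 normalized counts in the proliferating libraries and 20568, 21515 and 19636 with DMSO. The groups did not overlap, and the log2 fold change was -0.34 (SE 0.05, adjusted p 3.68e-05). At the same total it was not called (log2 fold change -0.11, adjusted p 0.0799). HSP90B1 went from 30504, 29433 and 28867 to 19086, 19383 and 17608 (log2 fold change -0.66, adjusted p 1.09e-08), again without overlap. HYOU1, a large ER Hsp70 relative that acts as an exchange factor for BiP, had 5599, 5486 and 5431 in proliferating cells and 2944, 2958 and 2929 with DMSO, a 1.87-fold decrease (adjusted p 2.56e-11). The HYOU1 groups did not overlap either.

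The partners of BiP split. DNAJB9 (ERdj4, chr7:108569874-108574850), a J-domain co-chaperone that targets misfolded clients for degradation and restrains IRE1, had 346.6, 305 and 349.5 normalized counts in proliferating cells and 1009, 988.5 and 1030 with DMSO. All DMSO libraries were above all proliferating ones, a 3.02-fold increase (log2 fold change 1.60, SE 0.07, adjusted p 1.96e-11). SIL1 (chr5:138946724-139198368), a nucleotide exchange factor of BiP, rose from 561.3, 690.9 and 573.3 to 1213, 1216 and 1185 (1.99-fold, adjusted p 1.48e-08). DNAJC3, a co-chaperone known to inhibit PERK, also rose, by 0.32 on the log2 scale. In the other direction, MANF, a secreted ER stress protein that binds BiP, had 1627, 1771 and 1450 in proliferating cells and 864.1, 897.3 and 756.2 with DMSO (log2 fold change -0.94, adjusted p 1.35e-07). SDF2L1, a component of the BiP co-chaperone complex with DNAJB11, had 401.6, 519 and 340.9 against 249.4, 239.1 and 232.4 (log2 fold change -0.78, adjusted p 0.000223). Neither gene overlapped between groups, although the proliferating libraries of SDF2L1 were spread, with A126 the highest and A127 the lowest. DNAJB11 and CRELD2 fell too, with log2 fold changes of -0.64 and -0.47.

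In the lectin cycle, which folds glycoproteins, CALR, UGGT1 and PDIA3 were lower and CANX was not called. CALR had 35642, 38638 and 36391 normalized counts in proliferating cells and 24041, 24915 and 22904 with DMSO (log2 fold change -0.62, adjusted p 3.87e-08), and the groups stood apart. CANX, its membrane-anchored counterpart, had 20982, 18672 and 21701 against 20811, 20823 and 20831. These groups overlapped, with the DMSO libraries inside the range of the proliferating ones (log2 fold change 0.03, 95% interval -0.11 to 0.17, adjusted p 0.706). At the same total CANX was called higher (log2 fold change 0.26, adjusted p 0.00153). UGGT1, the folding sensor that returns unfinished glycoproteins to the cycle, had 5971, 5303 and 6019 in proliferating cells and 3501, 3348 and 3519 with DMSO (log2 fold change -0.74, adjusted p 9.83e-08). PDIA3, the disulfide isomerase that works with the lectin chaperones, fell by 0.58 on the log2 scale.

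Among the 6 genes of oxidative folding and proline isomerisation, PDIA4, PDIA6 and PPIB fell and the other 3 were not called. PDIA4 (chr7:149003051-149028505), a disulfide isomerase of the BiP complex, had the largest decrease of all members. Its normalized counts were 7666, 8143 and 7642 in proliferating cells and 3217, 3515 and 3084 with DMSO, a 2.39-fold decrease with no overlap (log2 fold change -1.26, SE 0.05, adjusted p 9.49e-12). P4HB had 21001, 22440 and 20895 against 19813, 21108 and 19851. Its groups overlapped (log2 fold change -0.08, 95% interval -0.19 to 0.03, adjusted p 0.168), and its sign turned under all 3 other scalings. PDIA6, another isomerase, and PPIB, a cyclophilin needed for collagen folding, each fell by 0.58 on the log2 scale.

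Genes of ER-associated degradation, which returns misfolded proteins to the cytosol, moved in both directions, with 3 of the 6 tested higher and 2 lower. HERPUD1 (chr16:56932142-56944864), a scaffold of the degradation complex, had 1419, 1575 and 1491 normalized counts in proliferating cells and 1855, 1880 and 1830 with DMSO, without overlap (log2 fold change 0.31, adjusted p 3.34e-05). SYVN1, the ubiquitin ligase Hrd1, rose by 0.53 on the log2 scale (adjusted p 2.15e-06). DERL1 rose by 0.16 (adjusted p 0.00997), a call lost without library A125. EDEM1, a mannosidase-like protein that marks glycoproteins for disposal, fell by 0.63 on the log2 scale, and DERL2 fell by 0.19. SEL1L, the partner of SYVN1, was not called, with 3700 ± 368.4 against 4119 ± 122.9.

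Of the 3 sensors, ERN1 and EIF2AK3 were higher and ATF6 was not called. ERN1 (chr17:64039142-64130144) had 68.5, 54.3 and 77.1 normalized counts in proliferating cells and 216.8, 233.2 and 268.3 with DMSO. Every DMSO library was above every proliferating one, a 3.58-fold increase and the largest among the members (log2 fold change 1.84, SE 0.15, adjusted p 2.71e-08). EIF2AK3 had 360.1, 398.1 and 387.6 against 539.5, 628.6 and 605.9 (log2 fold change 0.63, adjusted p 2.77e-06), also without overlap. ATF6 had 1767, 1574 and 1984 against 1918, 2037 and 1885. Its groups overlapped and it was not called (log2 fold change 0.14, 95% interval -0.03 to 0.31, adjusted p 0.124). At the same total ATF6 was called higher (log2 fold change 0.37, adjusted p 0.000298). XBP1, the transcript that IRE1 splices, had 2476, 2768 and 2550 in proliferating cells and 1973, 2071 and 2035 with DMSO, and fell by 0.36 on the log2 scale (adjusted p 8.37e-05). WFS1, the ER membrane protein wolframin, rose from 1028, 1088 and 1054 to 1679, 1773 and 1955 (log2 fold change 0.77, adjusted p 3.52e-08). Neither XBP1 nor WFS1 overlapped between groups.

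Of the 3 genes of entry and exit, 2 were lower. SEC24D, a cargo-binding protein of the COPII coat, had 5487, 4781 and 5752 against 4254, 4323 and 4270 (log2 fold change -0.31, adjusted p 0.0016), with no overlap. SEC61B, a subunit of the translocation channel, had 1385, 1492 and 1319 against 1206, 1299 and 1146 (log2 fold change -0.20, adjusted p 0.0385). That call was lost when any one of A125, A126, A116 and A118 was left out. SERP1, which stabilises membrane proteins at the translocon, was not called, at 2892 ± 47.8 and 2915 ± 17.1. As deposited, of the 9 members with the ER stress element in the promoter window, 6 were lower and 3 not called after irradiation. Members with a window but without the element had 8 higher, 10 lower and 4 not called. Of all tested genes, 39.3% were lower and 33.0% higher. At the same total CALR, HSP90B1 and PDIA6 were lower, CANX, SERP1 and ERO1B higher, and HSPA5, XBP1 and CRELD2 not called. There, 5273 of all 11242 tested genes were higher and 2970 lower. Whether members with and without the element differ was not tested.

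**Figure D2:**
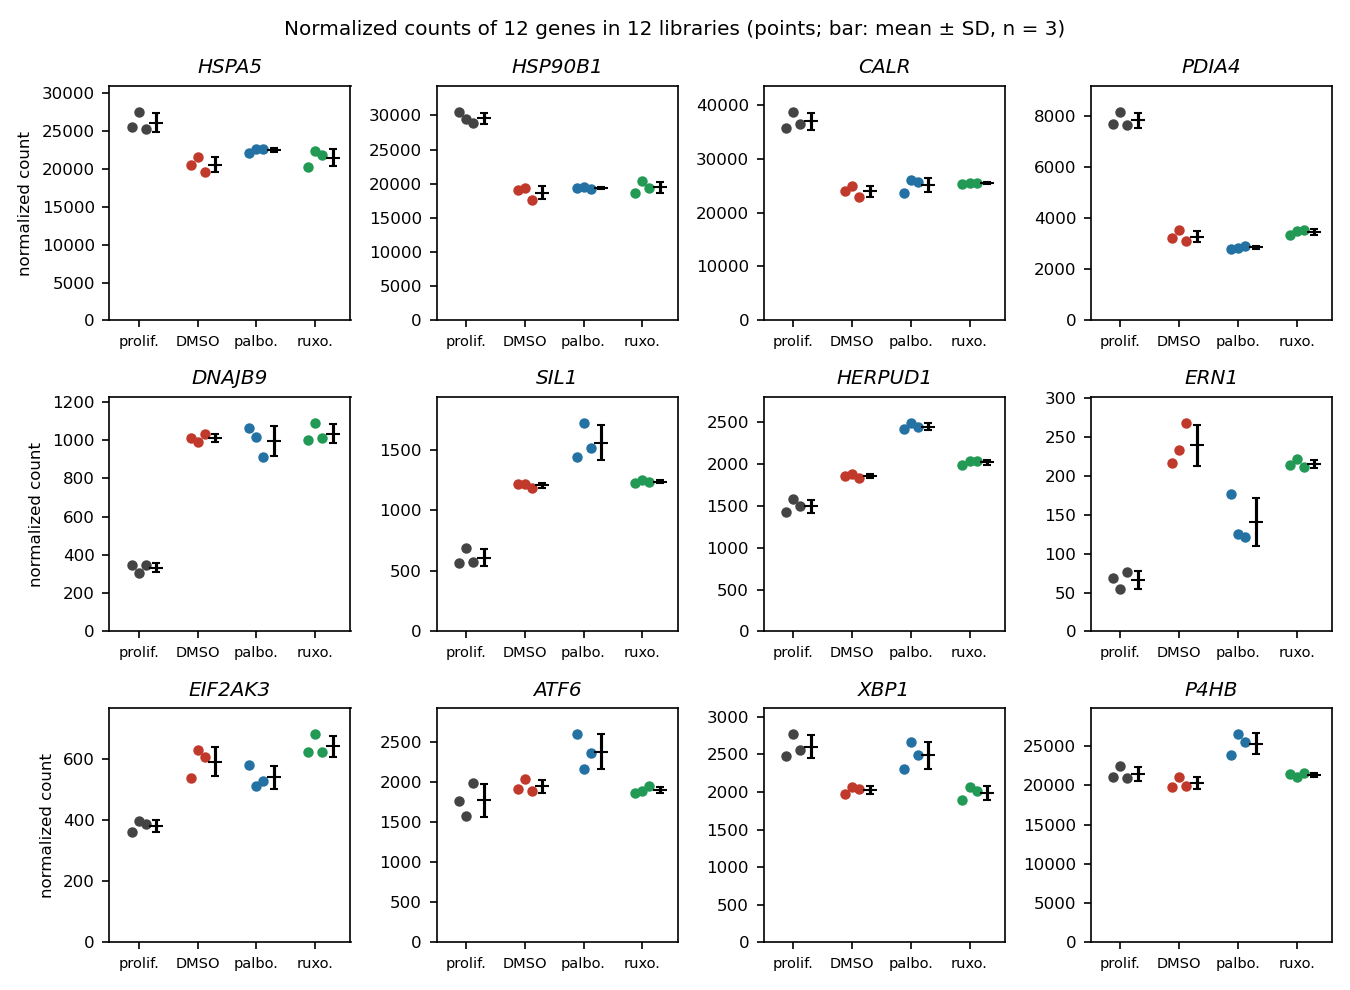
Points give the normalized count (vertical axis from 0, a separate scale per gene) of 12 genes in each library of the 4 groups, and bars the mean ± SD (n = 3). DNAJB9, SIL1 and ERN1 are higher and PDIA4 lower in all irradiated libraries than in all proliferating ones, and the palbociclib libraries of ERN1 lie below those with DMSO.

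Genes of neighbouring pathways were read from the same fit, in which 33.0% of all tested genes were higher and 39.3% lower. Of 20 tested genes of the PERK and ATF4 branch, 6 were higher and 13 lower after irradiation. The stress-induced factors ATF3 and DDIT3 (CHOP) rose by 3.58 and 1.93 on the log2 scale, and the amino acid synthesis genes ASNS and PSAT1 fell, with log2 fold changes of -1.92 and -1.86. Of 31 other ER folding genes, 11 were higher and 12 lower, with the largest decrease in SERPINH1, the collagen chaperone Hsp47, from 18835 ± 1524 to 5720 ± 106.4 normalized counts. Of 21 other genes listed under degradation, 9 were higher and 2 lower, led by TRAM1 and ERLEC1 with log2 fold changes of 0.90 and 0.73. TRAM1, though on this list, is better known as a protein of the translocon. Translocon, signal peptidase and oligosaccharyltransferase genes had 8 higher and 9 lower of 29. COPII and cargo export genes had 9 higher and 4 lower of 22, with the largest increase in MCFD2, a cargo receptor subunit (1.34 on the log2 scale). Of 12 other sensor and processing genes, 4 were higher and 6 lower, and of 15 cytosolic heat shock chaperones, 4 and 7. At the same total, 5273 of all 11242 tested genes were higher and 2970 lower. There, the other ER folding genes had 19 higher and 9 lower, and the other degradation genes 19 and 2. The translocon, signal peptidase and oligosaccharyltransferase genes had 18 and 5, and COPII and cargo export genes 16 and 2. The PERK and ATF4 branch had 6 higher and 11 lower there. Other sensor and processing genes had 4 and 6, and cytosolic heat shock chaperones 7 and 6.

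Palbociclib-treated senescent cells were compared with DMSO-treated ones to ask how CDK4 and CDK6 inhibition alters the senescent profile. HERPUD1 was higher and ERN1 and PDIA4 lower under every scaling tried, and none of the 34 members changed at least 2-fold, beside 6.00% of all tested genes. As deposited, 14 were higher and 2 lower, where 26.0% of all tested genes were higher and 22.3% lower. The median log2 fold change was 0.15 for the members and 0.02 for all tested genes. This balance rested on the scaling. Higher genes made up 87.5% of the calls as deposited and 85.7% at the same upper quartile (12 higher, 2 lower), but 41.7% after quantile normalization (5 higher, 7 lower) and 9.09% at the same total (1 higher, 10 lower). Over all tested genes they made up 53.9%, 48.0%, 54.6% and 15.4% of the calls, with 940 higher and 5170 lower at the same total. Only HERPUD1 among the higher calls, and ERN1 and PDIA4, which were the lower calls, were kept under all 3 scalings. The groups did not overlap for 17 members that were higher and 2 that were lower, against 29.1% and 25.7% of all tested genes.

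**Figure D3:**
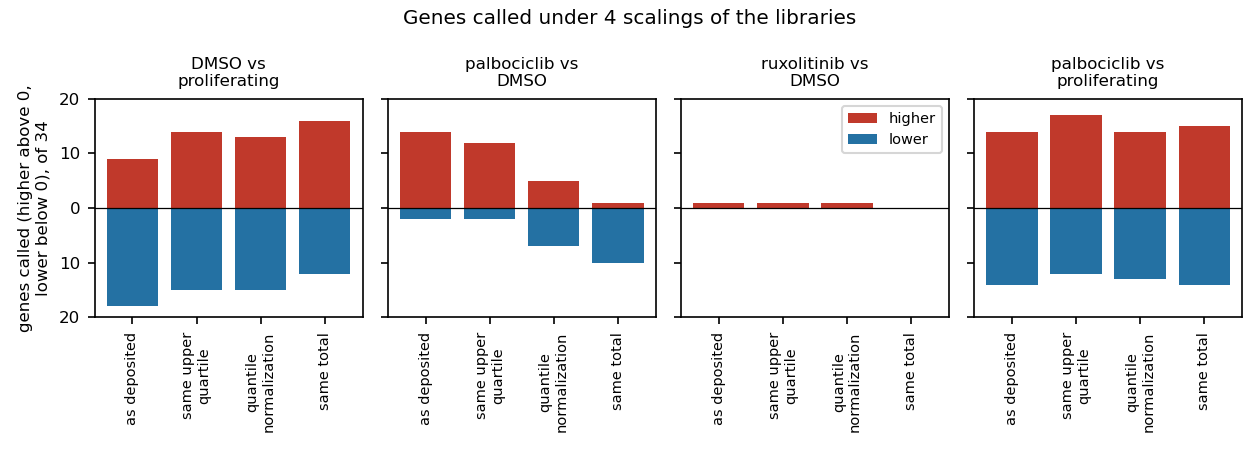
Bars give the number of the 34 genes called higher (above 0) and lower (below 0) at an adjusted p under 0.05 under 4 scalings of the libraries, in 4 comparisons. Between palbociclib and DMSO the calls go from 14 higher and 2 lower as deposited to 1 higher and 10 lower at the same total.

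ERN1 fell with palbociclib. Its normalized counts were 216.8, 233.2 and 268.3 with DMSO and 177.1, 124.8 and 121.7 with palbociclib, so that every palbociclib library was below every DMSO library and above the proliferating ones (log2 fold change -0.77, 95% interval -1.10 to -0.45, adjusted p 0.000712). A119 was the highest of the palbociclib libraries and stands apart along transcript length, and ERN1 has a long transcript of 7895 bases. Without A119 the log2 fold change of ERN1 was -0.95, and with each library's trend on length and GC content removed it was -0.73. PDIA4 had 3217, 3515 and 3084 with DMSO and 2805, 2832 and 2914 with palbociclib, and fell by 12.8% without overlap (log2 fold change -0.20, adjusted p 0.00703). HERPUD1 rose from 1855, 1880 and 1830 to 2411, 2487 and 2436 (log2 fold change 0.40, adjusted p 1.02e-05). The palbociclib libraries of HERPUD1 were above those of the 3 other groups.

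Of the other sensors, EIF2AK3 had 581, 511.2 and 526.7 normalized counts with palbociclib, overlapping the 539.5, 628.6 and 605.9 with DMSO (log2 fold change -0.13, 95% interval -0.30 to 0.04, adjusted p 0.181). ATF6 had 2600, 2163 and 2366 against 1918, 2037 and 1885, above all DMSO libraries (log2 fold change 0.28, adjusted p 0.00784). XBP1 had 2307, 2669 and 2485 against 1973, 2071 and 2035, also without overlap (log2 fold change 0.29, adjusted p 0.00116). The ATF6 and XBP1 calls were lost at the same total. WFS1 was not called, with 1682, 1920 and 1924 beside 1679, 1773 and 1955. At the same total EIF2AK3 and WFS1 were called lower, with log2 fold changes of -0.36 and -0.20 (adjusted p 0.00112 and 0.0199).

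The most abundant chaperones were not called as deposited. HSPA5 had 22117, 22581 and 22621 normalized counts with palbociclib, above the 20568, 21515 and 19636 with DMSO, but did not pass the adjusted threshold (log2 fold change 0.13, 95% interval 0.01 to 0.24, adjusted p 0.0677). HSP90B1 had 19336, 19480 and 19213, overlapping DMSO (log2 fold change 0.05, 95% interval -0.06 to 0.16, adjusted p 0.434). CALR had 23595, 25963 and 25667, also overlapping (log2 fold change 0.07, 95% interval -0.05 to 0.18, adjusted p 0.327). For HSPA5, HSP90B1 and CALR the sign turned at the same total and after quantile normalization. CANX had 24576, 20435 and 23138 and overlapped DMSO. DNAJB9 had 1061, 1015 and 910.5, overlapping its DMSO libraries (log2 fold change -0.02, 95% interval -0.18 to 0.13, adjusted p 0.817). At the same total DNAJB9, HSP90B1 and CALR were called lower, with log2 fold changes of -0.25, -0.18 and -0.16, and HSPA5 and CANX were not called.

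Several folding and trafficking genes were called higher with palbociclib as deposited, though not at the same total. P4HB had 23860, 26509 and 25479 normalized counts, above the 19813, 21108 and 19851 with DMSO (log2 fold change 0.32, adjusted p 0.000144). SIL1 had 1442, 1720 and 1514 against 1213, 1216 and 1185 (log2 fold change 0.37, adjusted p 0.00129). All 3 genes of entry and exit were higher. SEC61B had 1339, 1730 and 1571 against 1206, 1299 and 1146 (log2 fold change 0.34, adjusted p 0.00329), and SEC24D had 6051, 4821 and 5178 against 4254, 4323 and 4270 (log2 fold change 0.31, adjusted p 0.00325). Neither overlapped, and SERP1 rose by 0.31 on the log2 scale (adjusted p 3.77e-05). HYOU1 had 3338, 3287 and 3359 against 2944, 2958 and 2929 (log2 fold change 0.18, adjusted p 0.00277), and MANF 910.8, 1099 and 1024 against 864.1, 897.3 and 756.2 (log2 fold change 0.27, adjusted p 0.0227). PPIB, ERO1A, PDIA3 and DERL2 were higher by 0.24, 0.18, 0.16 and 0.15 on the log2 scale. Calls for MANF, ERO1A, PDIA3 and DERL2 were each lost without at least 1 library, which were A118, A120 or A121 for MANF, A117 or A119 for ERO1A, A116, A118 or A120 for PDIA3, and A125, A116, A118, A120, A121 or A123 for DERL2.

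The 18 members that were lower after irradiation had 8 called higher with palbociclib against DMSO (HYOU1, MANF, PDIA3, PPIB, DERL2, XBP1, SEC61B and SEC24D), 1 called lower (PDIA4) and 9 not called. The 9 members that were higher after irradiation had SIL1 and HERPUD1 called higher, ERN1 lower and 6 not called. The DMSO libraries enter both comparisons, and the matching counts over all tested genes were not made. At the same total, none of those 8 members was called higher with palbociclib. DERL2, XBP1, SEC61B and SEC24D were not called lower after irradiation there either. In the neighbouring pathways, to be read beside the 26.0% of all tested genes that were higher and the 22.3% that were lower, 19 of 29 translocon, signal peptidase and oligosaccharyltransferase genes were higher with palbociclib and 1 lower, with OSTC and SPCS3 at 0.91 and 0.89 on the log2 scale. COPII and cargo export genes had 14 higher and 0 lower of 22, including the KDEL receptors KDELR3 (0.58) and KDELR2 (0.55), which return chaperones to the ER. Other ER folding genes had 18 higher and 3 lower of 31, other degradation genes 9 and 0 of 21, other sensor and processing genes 6 and 2 of 12, and cytosolic heat shock chaperones 8 and 2 of 15. In the PERK and ATF4 branch, 12 were higher and 6 lower of 20: ATF3 fell by 2.54 and DDIT3 by 0.82 on the log2 scale, while PSAT1 rose by 1.82. These counts are as deposited, and at the same total 940 of all 11242 tested genes were higher and 5170 lower. At the same total the translocon, signal peptidase and oligosaccharyltransferase genes had 6 higher and 5 lower, COPII and cargo export genes 8 and 3, and other ER folding genes 5 and 8. Other degradation genes had 2 higher and 7 lower, other sensor and processing genes 0 and 3, cytosolic heat shock chaperones 2 and 5, and the PERK and ATF4 branch 9 and 7.

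**Figure D4:**
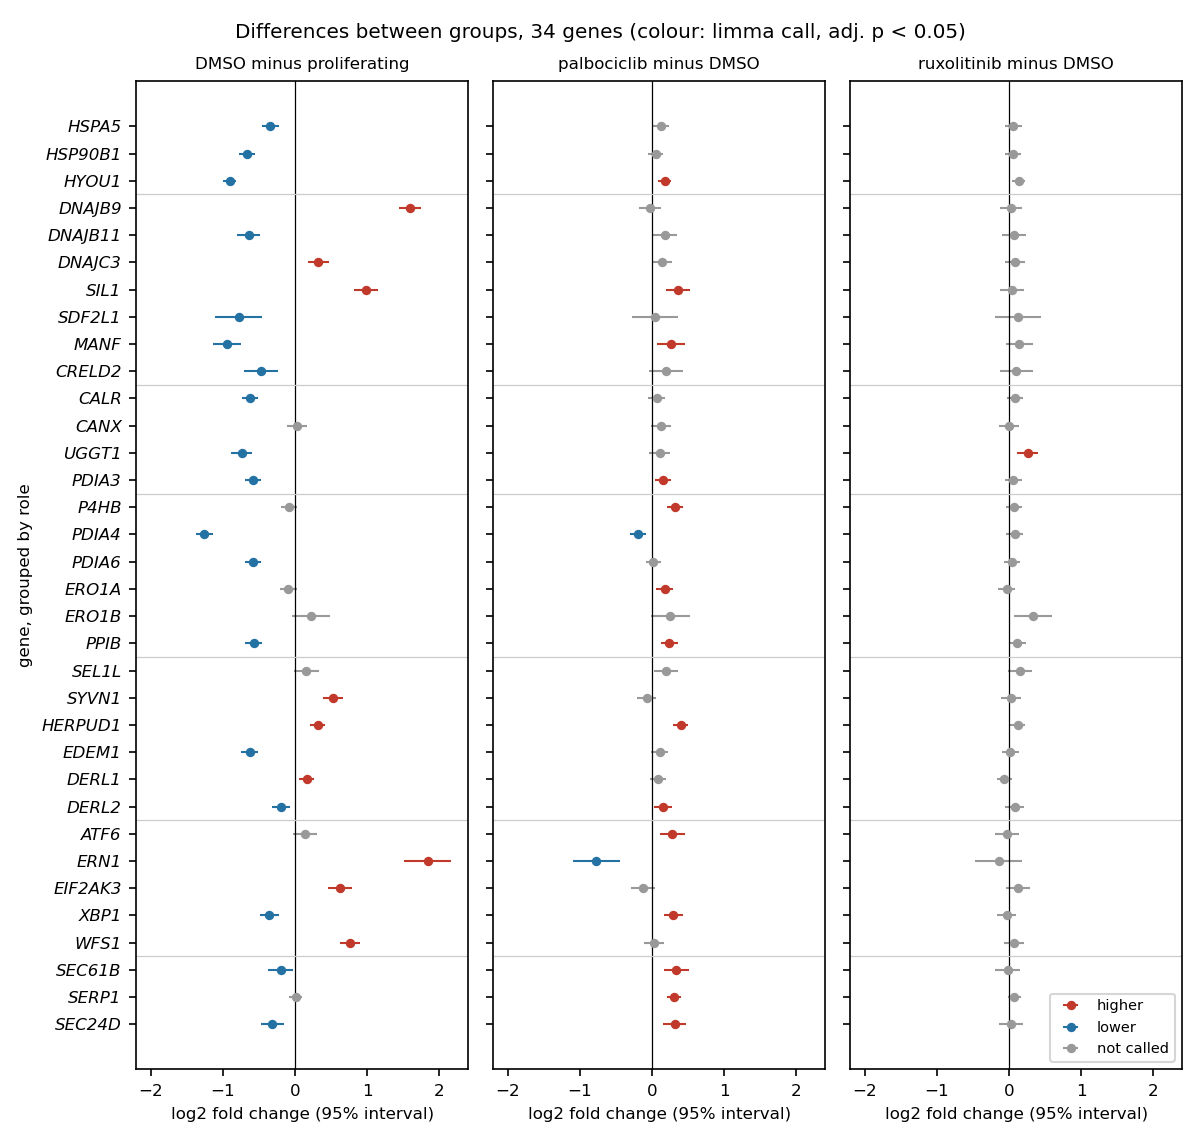
Points give the log2 fold change (horizontal axis) of 34 genes (vertical axis, by role) with its 95% interval in 3 comparisons, coloured by the limma call. Differences reach 1.84 for DMSO minus proliferating, stay within -0.77 and 0.40 for palbociclib minus DMSO, and 1 gene, UGGT1, is called for ruxolitinib minus DMSO.

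Ruxolitinib-treated senescent cells were compared with DMSO-treated ones to ask what Janus kinase inhibition alters. Of the 34 members, 1 was higher and 0 lower by limma, where 1.10% of all tested genes were higher and 3.42% lower. At an unadjusted p under 0.05, 5 members were higher and 0 lower, beside 6.56% and 9.24% of all tested genes. The edgeR test called 1 higher and 0 lower, and DESeq2 called 2 higher and 0 lower. Of all 11242 tested genes, edgeR called 153 higher and 403 lower, and DESeq2 200 and 451. The groups did not overlap for 10 members that were higher and 0 that were lower, against 14.9% and 17.0% of all tested genes, and the median log2 fold change of the members was 0.07. UGGT1 had 4114, 4032 and 4264 normalized counts with ruxolitinib and 3501, 3348 and 3519 with DMSO, without overlap (log2 fold change 0.26, adjusted p 0.0415). This call was lost without any one of A125, A116, A117, A118, A122, A123 and A124, and at the same total. ERN1 had 214.5, 221.5 and 211.1 with ruxolitinib, which overlapped its DMSO libraries of 216.8, 233.2 and 268.3, and was not called (log2 fold change -0.14, 95% interval -0.47 to 0.18, adjusted p 0.725). HSPA5 had 20217, 22373 and 21787, HSP90B1 18711, 20392 and 19329, and PDIA4 3332, 3491 and 3527, all overlapping DMSO. The intervals of HSPA5, HSP90B1 and PDIA4 reached 0.18, 0.17 and 0.19 on the log2 scale at most. In the neighbouring pathways the PERK and ATF4 branch had 10 lower and 0 higher of 20, with ATF3 and TRIB3 at -0.79 and -0.60, beside the 3.42% of all tested genes that were lower.

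The 2 inhibitors, given at the same dose and on the same days, were also compared directly with each other. Of the 34 members, palbociclib libraries had 10 higher and 3 lower than ruxolitinib libraries, where 22.8% and 17.6% of all tested genes were. The largest difference was in ERN1, with 177.1, 124.8 and 121.7 normalized counts with palbociclib and 214.5, 221.5 and 211.1 with ruxolitinib (log2 fold change -0.63, adjusted p 0.00411). PDIA4 was lower too (log2 fold change -0.28, adjusted p 0.000803). EIF2AK3 had 581, 511.2 and 526.7 with palbociclib and 621.9, 681.6 and 621.7 with ruxolitinib (log2 fold change -0.25, adjusted p 0.0188), a call lost without A120, A121 or A123. The groups did not overlap for any of ERN1, PDIA4 and EIF2AK3, and these 3 calls were kept under all 3 other scalings. The 10 higher calls were led by SEC61B, SIL1, XBP1, ATF6 and SEC24D, with log2 fold changes of 0.36, 0.33, 0.32, 0.32 and 0.28. None of the 10 was kept under all 3 scalings: the same total gave 0 higher and 11 lower, and quantile normalization 3 higher and 9 lower. Over all tested genes the same total gave 847 higher and 4531 lower, and quantile normalization 1976 higher and 1935 lower.

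Palbociclib-treated senescent cells were last set against proliferating cells, a comparison that shares its proliferating libraries with that of DMSO. Here 14 members were higher and 14 lower, where 35.2% and 38.6% of all tested genes were. Of the 18 members lower with DMSO against proliferating cells, 14 were lower and 4 not called with palbociclib, and all 9 that were higher were higher here too. The matching counts over all tested genes were not made, so this is not a trait of the members. Of all tested genes, 72.4% were called between DMSO and proliferating cells and 73.8% here. The largest differences were in DNAJB9 (log2 fold change 1.57, adjusted p 1.65e-11), PDIA4 (-1.45, adjusted p 1.13e-12), SIL1 (1.36, adjusted p 2.76e-10), ERN1 (1.06, adjusted p 1.22e-05), WFS1 (0.80, adjusted p 1.9e-08) and SDF2L1 (-0.75, adjusted p 0.000338). SDF2L1 had 197, 274.8 and 277.1 normalized counts with palbociclib, all below the 401.6, 519 and 340.9 of proliferating cells. XBP1 was not called, with 2307, 2669 and 2485 overlapping 2476, 2768 and 2550 (log2 fold change -0.06, 95% interval -0.20 to 0.07, adjusted p 0.36). CRELD2, a secreted ER stress protein, was called lower with groups that overlapped, and lost its call without A126 or A119. Of the 28 calls, 13 of 14 higher and 12 of 14 lower were kept under all 3 other scalings.

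Some members have near copies that could share their reads. The RefSeq annotation lists pseudogenes named for HSPA5 (1), HSP90B1 (2), PDIA3 (2) and XBP1 (1), and antisense genes named for HYOU1 and EIF2AK3. How the counting treated reads shared with a pseudogene, and whether it used the strand, is not given in the sources used here, so these 6 values are uncertain to that extent.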

How the data were processed

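Per the labels' protocols, TRIzol was used for extraction and poly(A) capture for the libraries. The submitters' processing notes name Trimmomatic 0.38.1, HISAT2 2.2.1, featureCounts 2.0.3, DESeq2 2.11.40.8 and the builds hg38 and GRCh38, with no role or order. The authors deposited 1 table of normalized counts, a signal that is never negative, by Entrez gene. The gene numbers end at 140467, and genes beyond it were not analysed here. Every value above 0 (160380 of 160380, 100%) was a whole multiple, at a tolerance of 0.01, of what 1 read was worth in its library, so whole reads were recovered. In A116, where that worth was 0.9898, this held for all 13836 values above 0. Column names give the group and a library number but no replicate number, and 0 columns were left unmapped.

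The test was limma 3.58.1 (R 4.3.3) with a mean-variance trend, fitted to log2(normalized count + 1) as 4 group means over 12 libraries. P-values were adjusted by Benjamini-Hochberg over all 11242 genes with a mean of at least 10. A fold change on this scale understates the change of low genes. The threshold for a call was an adjusted p of 0.05. The recovered reads were also tested with edgeR 4.0.16 (quasi-likelihood, TMM) and DESeq2 1.42.0. Other alternatives changed the pseudocount, filter, scaling, variance model, groups fitted and libraries left out. Scripts were tested on simulated data.

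The members and lists were chosen with earlier results of these data known. Values in every library are given for members among the 6 largest called changes of a comparison, the 3 sensors, XBP1, HSPA5, HSP90B1, CALR, CANX and P4HB. For the other lists, the named genes are among the largest called changes or were chosen after their values were seen. Promoter sequences and coordinates are from RefSeq, GRCh38.p14, the build of the processing notes. Transcript length and GC content are those of the transcript of each gene marked as Ensembl canonical in the GENCODE annotation, not of RefSeq.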

Additional observations from a re-analysis of the deposited data

How the results depend on the processing

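Over 2375 alternative values for 95 gene results, 2224 kept their direction and side of the threshold, 109 lost the call, 19 gained one and 23 changed sign. The results were the called members and a chosen few not called, so calls gained by other members are not in this count. Many of the alternatives stay close to the main fit. At the same total, of 21 results between palbociclib and DMSO, 3 were kept, 9 lost the call, 2 gained one and 7 changed sign. No paired analysis was possible because the columns carry no replicate numbers. Without libraries A120 and A126, and with each library's trend on transcript length and GC content removed, are alternatives chosen after seeing the data, as are the counts of the neighbouring pathways at the same total.

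Between DMSO and proliferating cells, higher calls (9) became 16 at the same total, 14 at the same upper quartile, 14 with the length and GC trend removed and 2 when a 2-fold change was required. Lower calls (18) became 1 at 2-fold. CANX turned to -0.035 without A126 and to -0.035 without A120 and A126, and leaving out 1 library gave -0.035 to 0.073. P4HB turned to 0.15 at the same total, 0.077 at the same upper quartile and 0.021 after quantile normalization, and DERL2 to 0.037 and SEC61B to 0.028 at the same total.

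Between palbociclib and DMSO, higher calls (14) became 1 at the same total, 5 after quantile normalization and 0 at 2-fold, and lower calls (2) became 10, 7 and 0. With the length and GC trend removed 21 were higher, and without A120 and A126, 19, with 2 lower in both. Over all tested genes the higher calls went from 2927 of 11242 to 3343 of 11167 and to 3132 of 11242 in these 2 settings. At the same total and after quantile normalization, HSPA5 turned to -0.10 and -0.18, HSP90B1 to -0.18 and -0.23, CALR to -0.16 and -0.29 and PDIA3 to -0.071 and -0.13. At the same total HYOU1 turned to -0.050, ERO1A to -0.051 and DERL2 to -0.072. DNAJB9 turned to 0.041 without A121, with a range of -0.070 to 0.041 when 1 library was left out, and to 0.020 with the length and GC trend removed.

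Between ruxolitinib and DMSO, the 1 higher call became 0 with no filter, 0 at the same total, 0 without a variance trend, 5 in a fit of the 2 groups alone, 3 without A120 and A126, 4 with the length and GC trend removed, 2 with DESeq2 and 0 at 2-fold. Leaving out 1 library gave 0 to 1. Over all tested genes the higher calls also moved, from 124 to 843 in the fit of the 2 groups alone. They were 568 without A120 and A126, 369 with the length and GC trend removed and 200 with DESeq2. With no filter they were 95, at the same total 87 and without a variance trend 85.

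Between palbociclib and ruxolitinib, higher calls (10) became 0 at the same total, 3 after quantile normalization and 0 at 2-fold, and lower calls (3) became 11, 9 and 0. P4HB turned to -0.056 after quantile normalization and DERL1 to -0.051 at the same total. Between palbociclib and proliferating cells, 3 higher and 1 lower calls reached 2-fold, and XBP1 turned to 0.065 at the same upper quartile. Scaling changes the value of every gene in a library by construction, and the cause of the other changes was not tested.

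With 1 library left out, 25 of 27 calls between DMSO and proliferating cells, 12 of 16 between palbociclib and DMSO, 11 of 13 between the inhibitors and 27 of 28 between palbociclib and proliferating cells were kept in all 12 fits. Genes with few reads, such as ERN1 in proliferating cells, carry the widest intervals.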
